A study of Mus musculus with 4 samples.

Results

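The actin and tropomyosin genes of the muscle thin filament were compared between exercised and sedentary young mice. The 8 genes were the skeletal and cardiac muscle actins Acta1 and Actc1, the cytoplasmic actins Actb and Actg1, and the tropomyosins Tpm1, Tpm2, Tpm3 and Tpm4. They were taken by gene name and protein-coding annotation from a table of 57180 genes, and all 8 were among the 13288 genes tested. RNA-seq was performed on tibialis anterior (TA) muscle, a fast muscle of the shin, with 2 Exercise and 2 Control libraries. Exercise mice were familiarized with a treadmill for 5 days, 30 min a day from 8 m/min, and were then trained at 12 m/min for 45 min a day, 5 days a week, over 4 weeks. Control mice were sedentary and of the same age. The methods describe wild-type male C57BL/6J mice, received at 3 weeks of age and examined at 8 weeks. Each library came from bulk tissue RNA, and no source used here states whether the libraries of a group came from different animals, so the p-values measure only the spread between these libraries.

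Actin subunits polymerize into the thin filament along which myosin pulls. Acta1 encodes the main actin of adult skeletal muscle, whereas Actc1 encodes the main actin of the adult heart and is also made in developing and regenerating skeletal fibers. Actb and Actg1 encode the actins that build the cytoskeleton of nearly every cell. Tropomyosin lies along the actin filament and, with the troponins, controls the access of myosin. Tpm1 and Tpm2 give the main striated muscle tropomyosins, Tpm3 gives the alpha tropomyosin of slow fibers and also cytoskeletal forms, and Tpm4 gives cytoskeletal forms in most cells.

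The start of each actin coding sequence is printed here because the actins are so alike that read assignment bears on every comparison between them. The first 60 coding bases are from the GENCODE vM21 mouse transcripts (GRCm38), 5′ to 3′, with capitals marking bases that differ from the first sequence of each set.
Acta1: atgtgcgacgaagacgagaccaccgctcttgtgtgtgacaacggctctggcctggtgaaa
Actc1: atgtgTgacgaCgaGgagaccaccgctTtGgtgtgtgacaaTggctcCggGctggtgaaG
Acta2: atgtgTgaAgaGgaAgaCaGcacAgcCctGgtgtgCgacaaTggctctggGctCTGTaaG
Actb: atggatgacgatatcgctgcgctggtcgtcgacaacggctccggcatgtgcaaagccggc
Actg1: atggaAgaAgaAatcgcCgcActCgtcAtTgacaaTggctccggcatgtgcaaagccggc
Actc1 differed from Acta1 at 9 of these 60 bases, and Acta2, the smooth muscle alpha actin, at 17. Actg1 differed from Actb at 9. Over the whole coding sequence, Acta1 and Actc1 were 86.2% identical (977 of 1134 bases) and Actb and Actg1 were 88.7% identical (1000 of 1128 bases). The longest run of bases shared by any 2 of the 6 actin transcripts compared was 77 (Acta1 and Actb), shorter than the 150-base reads. Between the tropomyosins, coding identity was 69.6% to 76.6% and the longest shared run was 37 bases (Tpm1 and Tpm2). The values are sums per gene, so they cannot separate the isoforms that 1 gene makes by splicing; GENCODE lists 16 protein-coding transcripts of Tpm1, 7 of Tpm3, 4 of Tpm2 and 1 of Tpm4. The 3 annotated pseudogenes named for these families were listed at 0, apart from 0.06 TPM for Actg-ps1 in Exercise replicate 1.

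Values are in TPM, a read abundance per transcript length that adds to a fixed total in every library. The 50 most abundant genes took 50.1% and 45.3% of that total in the Exercise libraries, against 62.0% and 58.9% in the Control libraries, and the median log2 fold change of all genes tested was 0.53. A second scaling, which divides each library by the median ratio of its genes to their mean over libraries (median-of-ratios), is therefore given beside each member. Replicates correlated at 0.982 in Exercise and 0.980 in Control, and libraries of different groups at 0.940 to 0.947. Sex-linked genes moved with the groups although the methods name male mice. Xist was at 0 and 0.07 TPM in Exercise, against 14.9 and 11.7 TPM in Control. The Y-linked Eif2s3y was at 16.7 and 25.2 TPM in Exercise, against 0.30 and 0 TPM in Control. The Y-linked Ddx3y, Uty and Kdm5d were present in all 4 libraries but higher in Exercise. Their log2 fold changes were 1.75, 1.33 and 1.48 (limma adjusted p = 0.00282, 0.00282 and 0.00295). Under both scalings, 4 of the 5 sex-linked genes were called higher and Xist was called lower. Exercise and whatever set these genes apart cannot be told apart in any result below. The fast fiber markers chosen for TA muscle summed to 119733 and 102510 TPM in Exercise and to 144850 and 151642 TPM in Control. Of the 11 tested, 7 were lower in Exercise and none higher, in the direction of Acta1 and Tpm1. After median-of-ratios scaling 8 were lower. Of all genes tested, 6.19% were lower, and 16.8% after median-of-ratios scaling. Of the fast myosins, Myh4 measured 3612 and 2441 TPM in Exercise and 5709 and 8092 TPM in Control (limma adjusted p = 0.00792). Myh1 measured 225 and 241 TPM in Exercise and 506 and 596 TPM in Control (limma adjusted p = 0.00282). Myh2 was at 8.82 and 60.9 TPM in Exercise and 66.1 and 66.7 TPM in Control, and did not pass (limma adjusted p = 0.132). The part of fiber type in the results was not tested. Adipocyte markers were lower in Exercise for 6 of 7, against 6.19% of all genes tested. The list summed to 325 and 1042 TPM in Exercise and to 4036 and 6286 TPM in Control. Car3, also made by muscle fibers, carried most of the Control sum, and without it the sums were 265 and 317 TPM in Exercise and 369 and 747 TPM in Control. The part of fat cells in the results was not tested.

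By adjusted p under 0.05 in limma on log2(TPM + 1), 5 of the 8 genes were higher in Exercise (Actc1, Actb, Actg1, Tpm3 and Tpm4), 2 were lower (Acta1 and Tpm1), and Tpm2 did not pass. The most abundant isoform of each family was the one that fell, and the less abundant isoforms, Tpm2 aside, were the ones that rose. Of all genes tested, 55.3% were higher and 6.19% were lower by the same rule, so 5 members higher was close to the background. The groups did not overlap for the same 5 genes upward and the same 2 downward, against 72.8% and 10.5% of all genes tested. After median-of-ratios scaling, 1 member was higher (Tpm4) and 3 were lower (Acta1, Tpm1 and Tpm2), against 10.6% and 16.8% of all genes tested. With 1 library left out, the members called higher fell to 3 without Exercise replicate 2 or without Control replicate 1, and the members called lower to 1 without Exercise replicate 2 and to 0 without Control replicate 2.

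**Figure D1:**
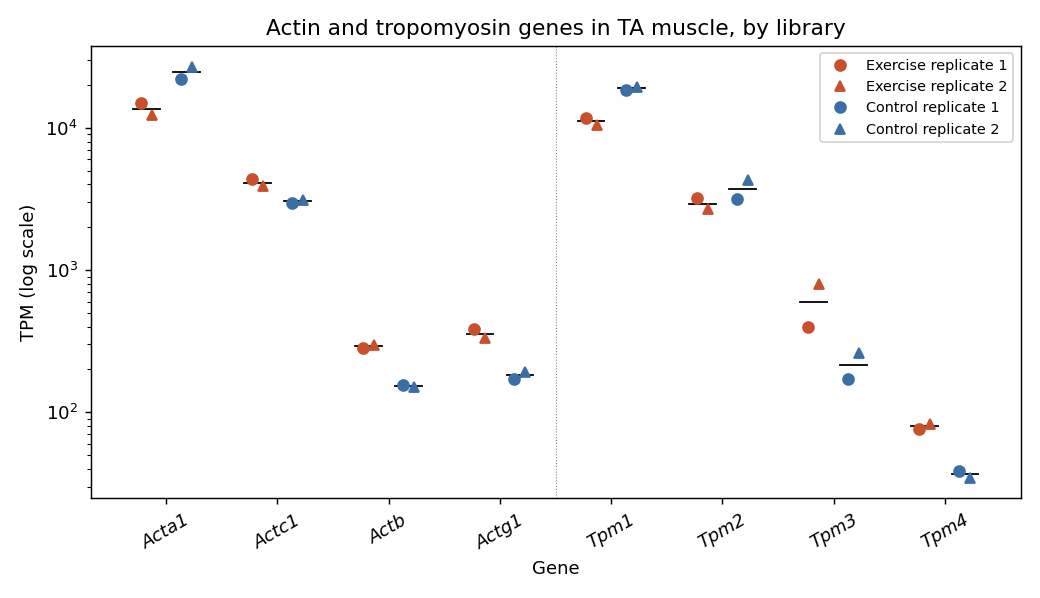
TPM of the 8 genes in each library on a log scale, Exercise in red left of Control in blue; circles are replicate 1, triangles replicate 2 and bars the group means. Acta1 and Tpm1 lie lower in both Exercise libraries, Tpm2 overlaps, and the other 5 lie higher in both Exercise libraries.

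Acta1 (ENSMUSG00000031972), the sarcomeric actin of adult skeletal muscle, was the most abundant member in all 4 libraries. It stood at 14994.5 and 12244.6 TPM in Exercise, against 22217.9 and 27043.7 TPM in Control. Both Exercise libraries were below both Control libraries. The means were 13619.5 ± 1944 TPM in Exercise and 24631 ± 3412 TPM in Control (SD, n = 2 each), a log2 fold change of -0.86 (SE 0.18, limma adjusted p = 0.00868). After median-of-ratios scaling the change was -1.49. Under quantile normalization it was -0.44 and did not pass (limma adjusted p = 0.141). It did not pass with no filter on low values either (limma adjusted p = 0.212). In bulk muscle, fewer fibers of a type and less Acta1 RNA per fiber cannot be told apart. The call was lost without Exercise replicate 2 (limma adjusted p = 0.0547) and without Control replicate 2 (limma adjusted p = 0.0730).

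Actc1 (ENSMUSG00000068614) moved the other way as deposited. It measured 4360 and 3889 TPM in Exercise and 2943 and 3134 TPM in Control, with both Exercise libraries above both Control libraries. The log2 fold change was 0.44 (SE 0.14, limma adjusted p = 0.0296). Median-of-ratios scaling turned the direction: the scaled values were 3643 and 2970 in Exercise, against 3798 and 3747 in Control, a log2 fold change of -0.20 (limma adjusted p = 0.346). The call was also lost with any 1 of the 4 libraries left out. Set against the median gene, Actc1 differed by -0.09 and Acta1 by -1.38 on the log2 scale.

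Within the actin family the comparison does not depend on how a whole library is scaled. Acta1 made up 74.9% and 73.0% of the 4-actin sum in Exercise, against 87.2% and 88.6% in Control. Actc1 made up 21.8% and 23.2% in Exercise, against 11.5% and 10.3% in Control. The groups did not overlap for either share, and the mean differences were -13.9 percentage points for Acta1 and 11.6 percentage points for Actc1. An exact two-sided permutation test gave p = 0.333 for each share, the smallest p that 2 against 2 libraries allow, so neither could reach 0.05.

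**Figure D2:**
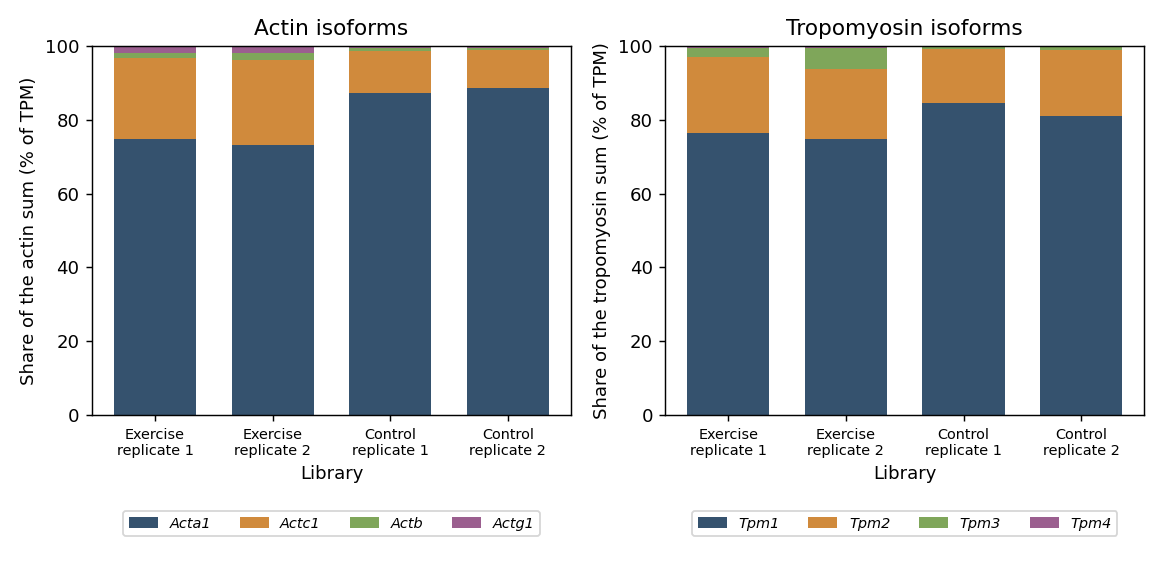
Share of each isoform in the actin sum (left) and in the tropomyosin sum (right), in percent of TPM, for each library, Exercise left of Control. Acta1 takes 73.0% to 74.9% of actin in Exercise and 87.2% to 88.6% in Control; Tpm1 takes 74.8% to 76.3% of tropomyosin in Exercise and 81.0% to 84.6% in Control.

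Of all genes tested, 55.3% were higher in Exercise, and 10.6% after median-of-ratios scaling. Markers of developing and regenerating fibers, where Actc1 is also made, were higher for 7 of 7 tested under both scalings. Their summed level was 5848 and 6567 TPM in Exercise, against 2081 and 2502 TPM in Control, none of them at 0. Embryonic myosin Myh3 had 910.5 and 1040.2 TPM in Exercise and 319.7 and 379.3 TPM in Control, a log2 fold change of 1.48 against 0.44 for Actc1. Among the markers of heart muscle, Mybpc3, Myl7 and Nppa were at 0 to 0.33 TPM in every library, and Tnni3 was at 0.82 and 1.63 TPM in Exercise and 0.95 and 0.36 TPM in Control. Myh6, the heart myosin heavy chain, was low but higher in Exercise, at 1.80 and 4.49 TPM against 0.35 and 0.87 TPM in Control (log2 fold change 1.30, limma adjusted p = 0.0169), a call not held after median-of-ratios scaling. Myl3, on the heart list and also made by slow fibers, measured 0.81 and 465 TPM in Exercise and 28.9 and 47.9 TPM in Control. The part of regenerating fibers in the Actc1 values was not tested.

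**Figure D3:**
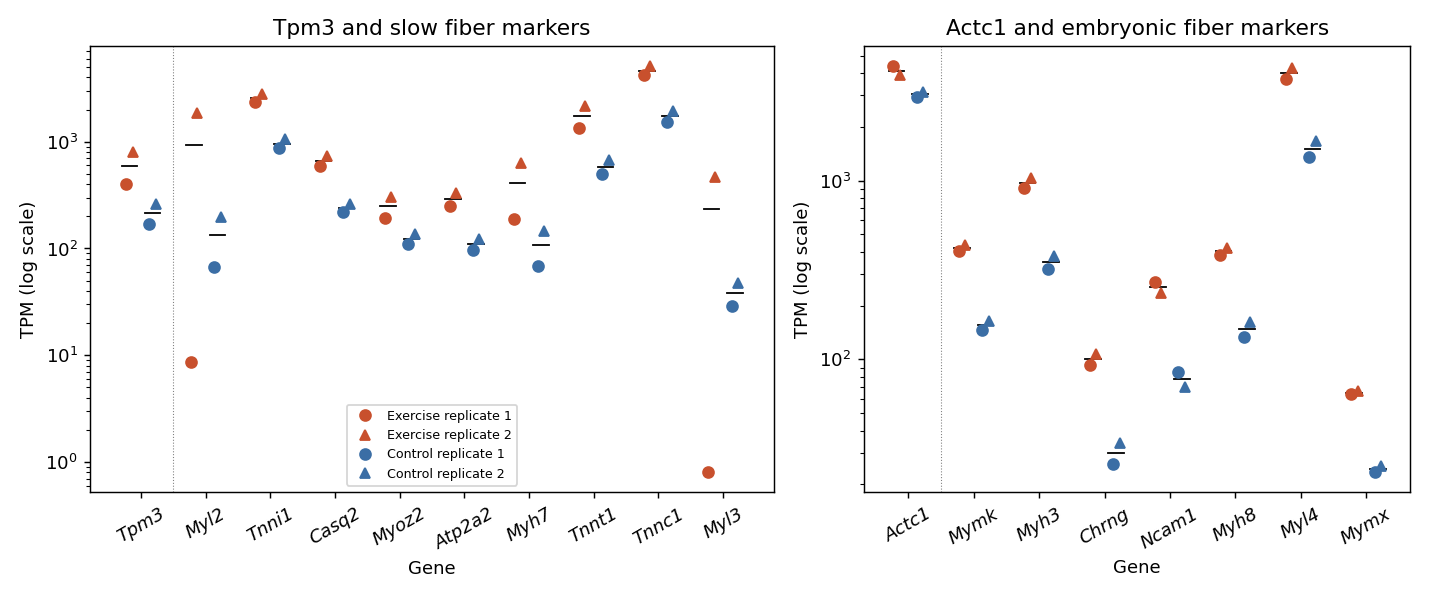
TPM on a log scale of Tpm3 beside slow fiber markers (left) and of Actc1 beside embryonic fiber markers (right), Exercise in red left of Control in blue in each pair, bars at the group means. Tpm3 and every slow marker shown are higher in Exercise replicate 2 than in Exercise replicate 1, most of all Myl2 and Myl3. All 7 embryonic markers lie higher in both Exercise libraries.

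The cytoplasmic actins rose together. Actb (ENSMUSG00000029580), the beta actin of the cell cortex and often used as a reference gene, measured 284.8 and 298.1 TPM in Exercise and 154.8 and 151.1 TPM in Control. Its means were 291 ± 9.40 TPM in Exercise and 153 ± 2.63 TPM in Control (SD, n = 2 each), a log2 fold change of 0.93 (SE 0.12, limma adjusted p = 0.00293). The groups lay far apart relative to their spread. Actg1 (ENSMUSG00000062825), gamma actin, measured 382.9 and 332.9 TPM in Exercise and 171.2 and 191.8 TPM in Control. Its log2 fold change was 0.97 (SE 0.13, limma adjusted p = 0.00321), again with no overlap. After median-of-ratios scaling neither passed, with 0.29 for Actb (limma adjusted p = 0.0675) and 0.34 for Actg1 (limma adjusted p = 0.115), although both stayed higher in both Exercise libraries.

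Actb and Actg1 together held 3.33% and 3.76% of the actin sum in Exercise, against 1.28% and 1.12% in Control. Their ratio to the 2 muscle actins was 0.0345 and 0.0391 in Exercise and 0.0130 and 0.0114 in Control, 3.03-fold higher in Exercise (exact permutation p = 0.333). The balance between them did not separate the groups. Actb over Actg1 was 0.744 and 0.895 in Exercise and 0.904 and 0.788 in Control (log2 difference -0.05, exact permutation p = 0.667). Cells other than fibers also make these actins. Of the markers of such cells, 1 of 7 endothelial, 0 of 8 fibroblast and 0 of 4 macrophage markers were higher. Of these markers 1, the macrophage marker Lyz2, was lower. The shares over all genes tested were 55.3% and 6.19%. After median-of-ratios scaling none was higher and 1 of each list was lower, against 10.6% and 16.8%. Endothelial sums were 66.1 and 64.9 TPM in Exercise and 62.2 and 41.5 TPM in Control. Fibroblast sums were 295 and 427 TPM in Exercise and 493 and 235 TPM in Control. Macrophage sums were 16.6 and 23.8 TPM in Exercise and 37.5 and 30.9 TPM in Control. Tenocyte markers were higher for 1 of 4 and lower for none under both scalings. Smooth muscle and pericyte markers, Acta2 included, were higher for 4 of 9, against 55.3% of all genes tested. Their sums, mostly Acta2, were 903 and 1047 TPM in Exercise and 418 and 425 TPM in Control. Satellite cell markers were higher for 4 of 5, and for 2 of 5 under the second scaling, against 55.3% and 10.6% of all genes tested. The satellite cell sums were 78.1 and 84.3 TPM in Exercise and 35.3 and 36.5 TPM in Control. The part of these cells in the Actb and Actg1 values was not tested.

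The smooth muscle actins are the remaining actins of the family. Acta2 (ENSMUSG00000035783), of vessel walls and also of immature muscle fibers, measured 753.6 and 870.7 TPM in Exercise and 268.5 and 323.2 TPM in Control. The log2 fold change was 1.46 (SE 0.15, limma adjusted p = 0.00282), and 0.82 after median-of-ratios scaling (limma adjusted p = 0.00972). Acta2 was thus more abundant than either cytoplasmic actin and took 3.63% and 4.94% of the 6-actin sum in Exercise, against 1.04% and 1.05% in Control. Of the smooth muscle and pericyte markers tested, 4 of 9 were higher, against 55.3% of all genes tested, and none was lower. The 4 were Acta2 itself, Notch3 (0.99), Tagln (0.83) and Smtn (0.50). Of these, 1, Acta2, was higher after median-of-ratios scaling. Myh11, the smooth muscle myosin, was at 1.83 and 2.25 TPM in Exercise and 4.24 and 1.97 TPM in Control and did not pass. Without Acta2, the list summed to 149.1 and 176.3 TPM in Exercise and to 149.1 and 101.4 TPM in Control. The part of smooth muscle and pericytes in the Acta2 values was not tested. Actg2, of gut smooth muscle, was near 1 TPM in all libraries and did not pass.

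Tpm1 (ENSMUSG00000032366), the alpha tropomyosin of fast and heart muscle, was the most abundant tropomyosin. It measured 11810.4 and 10562.1 TPM in Exercise, against 18496.8 and 19481 TPM in Control, with no overlap. The log2 fold change was -0.77 (SE 0.15, limma adjusted p = 0.00656) as deposited and -1.40 after median-of-ratios scaling. Under quantile normalization it was -0.36 and did not pass (limma adjusted p = 0.0846). It did not pass with no filter on low values either (limma adjusted p = 0.191). Without Control replicate 2 the call was lost (limma adjusted p = 0.0538). Tpm2 (ENSMUSG00000028464), the beta tropomyosin, measured 3193.6 and 2677.4 TPM in Exercise and 3161.2 and 4276.6 TPM in Control. Exercise replicate 1 lay between the Control libraries, and the log2 fold change of -0.33 (SE 0.19) did not pass (limma adjusted p = 0.164). It did pass as lower after median-of-ratios scaling, at -0.97.

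As shares of the tropomyosin sum, Tpm1 took 76.3% and 74.8% in Exercise, against 84.6% and 81.0% in Control. Tpm2 took 20.6% and 19.0% in Exercise, against 14.5% and 17.8% in Control. The 2 groups did not overlap for either share. Tpm2 over Tpm1 was 1.35-fold higher in Exercise (0.270 and 0.253, against 0.171 and 0.220 in Control), the smallest of the ratio differences that did not overlap. The exact permutation p was 0.333 for these shares and this ratio, and quantile normalization turned the sign of the Tpm2 values (-1.27 percentage points of the sum, and -0.09 for the log2 ratio).

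Tpm3 (ENSMUSG00000027940) had the largest rise of the 8 genes and the widest spread between replicates. It measured 398.6 and 797.2 TPM in Exercise and 170.2 and 262.9 TPM in Control. The log2 fold change was 1.41 (SE 0.35, limma adjusted p = 0.0139). Exercise replicate 2 was the higher one, and without it the change was 0.91 and did not pass (limma adjusted p = 0.0653). Leaving out Control replicate 1 also lost the call, at 1.10 (limma adjusted p = 0.0569). It did not pass after median-of-ratios scaling either, at 0.77 (limma adjusted p = 0.148). Tpm3 over Tpm1 was 0.0338 and 0.0755 in Exercise and 0.00920 and 0.0135 in Control, 4.53-fold higher in Exercise (exact permutation p = 0.333).

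Slow fiber markers share their fiber type with the main muscle form of Tpm3. They too were higher in Exercise replicate 2 than in Exercise replicate 1, by widely differing amounts. Myh7, the slow myosin heavy chain, measured 189 and 638 TPM in Exercise and 68.7 and 146 TPM in Control. Myl2, the slow regulatory light chain, measured 8.74 and 1872 TPM in Exercise and 67.5 and 197.7 TPM in Control. Myl3 measured 0.81 and 465 TPM in Exercise and 28.9 and 47.9 TPM in Control. For both, Exercise replicate 1 was the lowest of all 4 libraries, and neither passed. Other gaps were smaller. Tnni1 measured 2370 and 2784 TPM in Exercise and 866 and 1052 TPM in Control. Tnnc1 measured 4184 and 5095 TPM in Exercise and 1536 and 1944 TPM in Control. The 9 slow markers summed to 9124 and 14385 TPM in Exercise, against 3494 and 4576 TPM in Control, and 7 of 9 were higher and none lower. Under the second scaling 5 of 9 were higher, without Myh7 and Myoz2. Of all genes tested, 55.3% were higher, and 10.6% under the second scaling. No slow marker was at 0. The part of slow fiber content in the Tpm3 values was not tested.

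Tpm4 (ENSMUSG00000031799), the cytoskeletal tropomyosin, was the least abundant member. It measured 76.0 and 82.8 TPM in Exercise and 38.8 and 34.5 TPM in Control, with a log2 fold change of 1.09 (SE 0.13, limma adjusted p = 0.00289). It was the only member higher after median-of-ratios scaling, at 0.47 (limma adjusted p = 0.0411). Its call held under all 16 alternative settings, with log2 fold changes of 0.47 to 1.18. Relative to Tpm1 and Tpm2 together it was 3.49-fold higher in Exercise.

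The whole families fell together. The 4 actins summed to 20022 and 16765 TPM in Exercise, against 25486 and 30520 TPM in Control, and the 4 tropomyosins to 15479 and 14120 TPM in Exercise, against 21867 and 24055 TPM in Control. These sums follow Acta1 and Tpm1. The ratio of the actin sum to the tropomyosin sum was 1.29 and 1.19 in Exercise and 1.17 and 1.27 in Control, so the groups overlapped (log2 difference 0.03, exact permutation p = 0.667). In Exercise the order of mean levels was Acta1, Tpm1, Actc1, Tpm2, Tpm3, Actg1, Actb and Tpm4, with no overlap between neighbours in the order. In Control Tpm2 stood above Actc1, and Tpm3 and Actg1 overlapped.

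**Figure D4:**
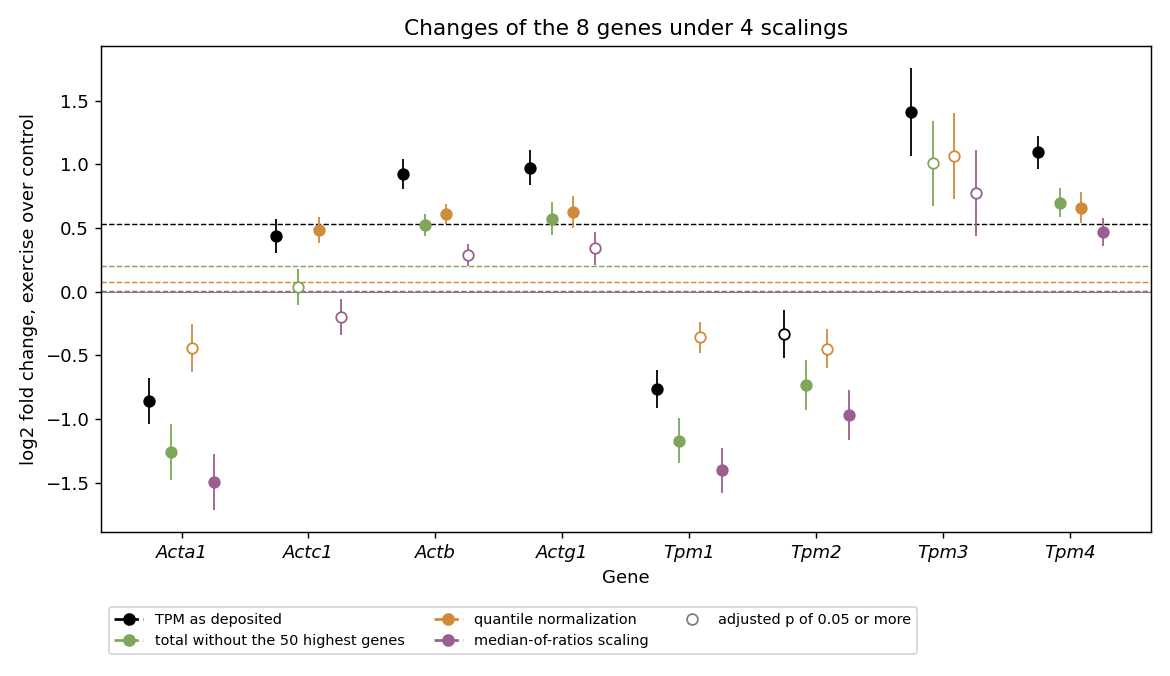
Log2 fold change (Exercise over Control) of each gene under 4 scalings, with standard errors from limma; filled points have an adjusted p under 0.05 and dashed lines mark the median of all genes tested under each scaling. Actc1 lies at 0.44 as deposited and -0.20 after median-of-ratios scaling. Under all 4 scalings Acta1, Tpm1 and Tpm2 stay below 0 and Actb, Actg1, Tpm3 and Tpm4 above 0, not all with filled points.

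The genes whose pattern over the 4 libraries lay nearest to each member were found by the distance between centred log2 values, among 3567 protein-coding genes of at least 20 TPM, as a description. For Acta1 they were Ppp1r3a (distance 0.0652), the M-band gene Myom2 (0.0707) and Aldh6a1 (0.0996). For Tpm1 they were Nipsnap2 (0.0942), Apoo (0.0986) and Isca1 (0.111), 3 genes of mitochondrial proteins. For Tpm3 they were Tomm20 (0.297), the slow troponin gene Tnnt1 (0.301) and Txnip (0.303). The values were centred but not scaled, so distances grow with the spread of a gene. That spread was wide for Tpm3, so its larger distances do not show a less shared pattern. Actc1 lay nearest to Nr1h2, Hnrnpm and Atpaf2 (0.0526 to 0.0744), and Actb to Rbm28, Med10 and Nras (0.0218 to 0.0370). Actg1 lay nearest to Vps37a, Zc3h7a and Eif2s1 (0.0530 to 0.0977), Tpm2 to Oaz2, Jph1 and Ghr (0.0582 to 0.0772), and Tpm4 to Mrpl52, Cd9 and Brwd1 (0.0390 to 0.0551). With 4 libraries, many genes share any such pattern.

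Actin transcription in muscle depends on serum response factor (SRF), which binds the CArG box, and on its MRTF coactivators, which free actin monomers hold back. The promoter windows that held an exact match to this motif are printed, because they belong to members that moved in opposite directions. Capitals mark the exact match alone, and boxes with a mismatch were not searched for. They are the 250 bases before the transcription start, 5′ to 3′ on the strand of the gene, from RefSeq on GRCm38.p6.
Acta1, chr8:123894776-123895025, minus strand: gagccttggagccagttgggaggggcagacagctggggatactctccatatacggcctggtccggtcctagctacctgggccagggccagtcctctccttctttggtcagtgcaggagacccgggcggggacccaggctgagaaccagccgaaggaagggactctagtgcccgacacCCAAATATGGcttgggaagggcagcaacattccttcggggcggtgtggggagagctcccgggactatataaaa
Actc1, chr2:114052876-114053125, minus strand: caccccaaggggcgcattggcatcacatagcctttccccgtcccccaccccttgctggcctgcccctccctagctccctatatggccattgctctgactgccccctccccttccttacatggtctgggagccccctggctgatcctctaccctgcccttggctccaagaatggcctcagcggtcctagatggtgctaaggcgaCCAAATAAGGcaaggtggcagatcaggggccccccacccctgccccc
Actg1, chr11:120348496-120348745, minus strand: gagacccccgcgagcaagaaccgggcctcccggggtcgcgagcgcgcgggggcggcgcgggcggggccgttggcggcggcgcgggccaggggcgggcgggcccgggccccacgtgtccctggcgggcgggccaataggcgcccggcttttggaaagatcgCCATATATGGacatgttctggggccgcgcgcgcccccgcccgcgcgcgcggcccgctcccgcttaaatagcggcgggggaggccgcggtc
Windows ran from 250 bases before to 50 bases after the start and were found for 7 of the 8 members. Actb had no window, so its promoter was not searched. The pattern searched was CCWWWWWWGG, with W for A or T, which as a pattern is the same on both strands. It lay 73 bases before the start in Acta1, 47 in Actc1 and 90 in Actg1. It was found in none of the Tpm1 to Tpm4 windows, and 1.63% of 32851 mouse windows of this length held it. Of these 3 genes, as deposited, Acta1 was lower in Exercise and Actc1 and Actg1 were higher. A match is not evidence of binding, and the missing matches say nothing of the factor. Srf itself measured 16.9 and 17.9 TPM in Exercise and 13.6 and 17.3 TPM in Control and did not pass (log2 fold change 0.17, limma adjusted p = 0.369). Of the 5 SRF and MRTF pathway genes tested, 2 were higher and 1 lower: Mrtfa, the coactivator, at 0.79 and Fhl2, an SRF cofactor, at 1.12 were higher, and Abra, an activator of the pathway in striated muscle, at -0.79 was lower on the log2 scale. The median was 0.32, against 0.53 over all genes tested, of which 55.3% were higher and 6.19% lower. Median-of-ratios scaling left 1 higher call (Fhl2) and 2 lower calls, Abra and now Srf, which turned to -0.43 (limma adjusted p = 0.0490), while Mrtfa at 0.23 no longer passed.

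The proteins that handle actin were read from lists of the pathway. Their counts stand against 55.3% higher and 6.19% lower of all genes tested. After median-of-ratios scaling these shares were 10.6% and 16.8%. Monomer binding and turnover genes were higher for 12 of 20 tested and lower for 1, with a median log2 fold change of 0.60 against 0.53 over all genes. The monomer-binding thymosins stood out in level: Tmsb10 had 5703 and 6041 TPM in Exercise and 2092 and 2455 TPM in Control (log2 fold change 1.37), and Tmsb4x had 992 and 1139 TPM in Exercise and 520.4 and 473 TPM in Control (1.10). Cfl1, the filament-severing cofilin of non-muscle cells, rose by 1.24 on the log2 scale. Median-of-ratios scaling left 5 higher calls and 3 lower calls in this list.

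Nucleation genes were higher for 16 of 20 and lower for none, with a median of 0.82. Arpc2 and Actr3, subunits of the branching complex Arp2/3, changed by 0.97 and 1.02, and Cobl by 0.62. Folding genes of the CCT chaperonin and prefoldin, through which newly made actin passes, were higher for 12 of 15 and lower for none, with a median of 0.74. Cct3 (0.99), Tcp1 (0.79), Cct4 (0.75) and Cct8 (0.75) were among them. Most of these calls did not hold after median-of-ratios scaling, which left 4 higher and 2 lower for nucleation and 1 higher and 1 lower for folding.

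Thin filament length and capping genes moved both ways, with 4 of 14 higher, 4 lower and a median of 0.02. Neb, the giant protein that spans the thin filament in skeletal muscle, had 627 and 436 TPM in Exercise, against 920.4 and 1371 TPM in Control (log2 fold change -1.10). Tmod4, the pointed-end cap of skeletal muscle, was lower at -0.63. The caps used in most cells were higher, Tmod3 at 0.88 and Capza1 at 0.83, though neither passed after median-of-ratios scaling, when none of the 14 was higher and 7 were lower. Actin-modifying enzymes were higher for 3 of 8 and lower for 2. Msrb1, which reduces oxidized methionines of actin, was lower at -1.42, with 81.5 and 64.4 TPM in Exercise and 166.5 and 230.6 TPM in Control. Mical1, which oxidizes them, was higher at 0.90, and Mical2, at 0.11, did not pass. The second scaling gave no higher and 3 lower calls among these 8 enzymes, with Mical1 at 0.34 and Mical2 at -0.52, neither past the threshold.

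**Figure D5:**
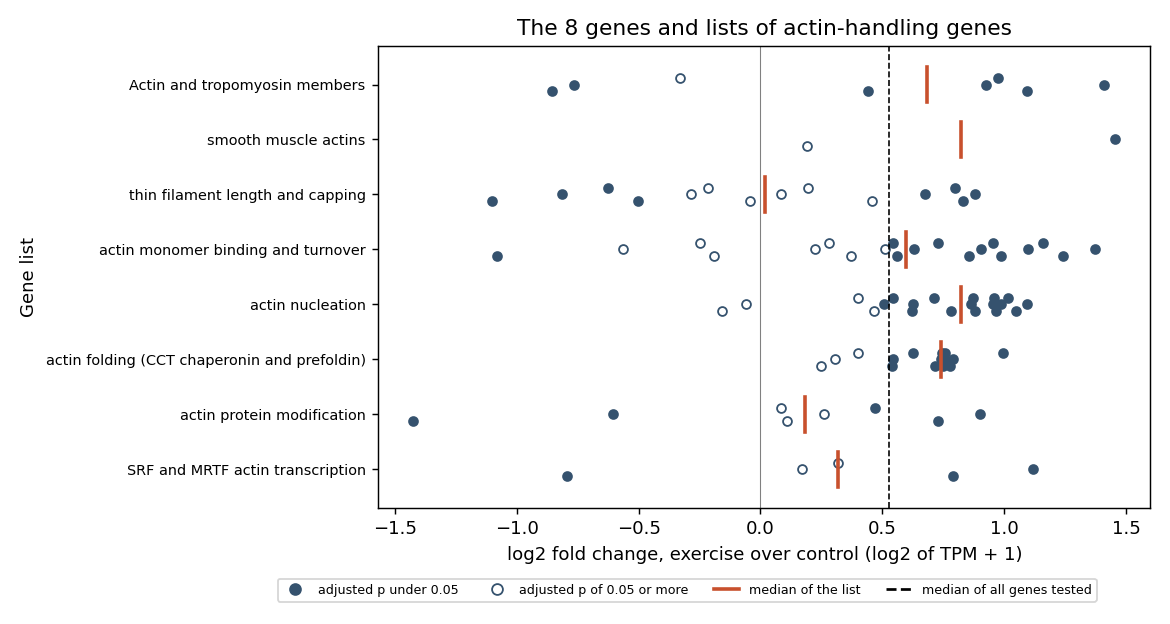
Log2 fold change (Exercise over Control) of each tested gene of the 8 members and of each list, 1 point a gene, filled where the adjusted p was under 0.05; red bars are list medians and the dashed line is the median of all genes tested, 0.53. Nucleation (median 0.82) and folding genes (0.74) lie mostly right of 0, and thin filament length and capping genes lie on both sides (0.02).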

How the data were processed

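Total RNA of TA muscle was sequenced as paired 150-base reads. The labels name the Illumina Stranded mRNA Prep kit and the methods an NEBNext Ultra kit, so the strand setting is uncertain. Per the labels, the submitters' processing notes list fastp, HISAT2, StringTie and GRCm39, without versions. The values the authors deposited are TPM per gene; reads and counts were not used here, so the depth of each library is unknown and no counting interval is given. TPM are normalized to gene length and to a fixed total, so a fall of very abundant RNAs raises all others.

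A gene was tested if 2 or more of the 4 libraries reached 1 TPM, which left 13288 of 57180. Exercise was compared with Control by limma 3.58.1 in R 4.3.3 on log2(TPM + 1), with a mean-variance trend, two-sided, and Benjamini-Hochberg adjustment over all genes tested at 0.05. Fold changes on this scale understate changes of low genes. The differential expression tool in the study's methods takes counts and was not used. Shares of the actin and tropomyosin sums (10) and isoform ratios (7; another is not reported here) were compared by exact two-sided permutation, whose smallest p here is 0.333 (0.378 after Benjamini-Hochberg adjustment over the 17). The 8 genes are not replicates of a condition. Samples were grouped by the group label.

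The text names the 8 members, the 3 nearest genes of each, and markers that stand beside a member. Of each pathway list it names the 2 genes of smallest p and the 2 of highest mean TPM. The sex-linked, heart, smooth muscle, macrophage, adipocyte, fast fiber and slow fiber markers were named after their values were seen. Members, lists and markers were chosen with earlier results of these data known. Alternatives were other pseudocounts (0.1 and 0.01), other filters, other scalings, other limma settings, a replicate block and each library left out. Sequences were taken from GENCODE vM21 transcripts (the longest open reading frame) and RefSeq promoter windows, read with Python 3.11.15 and Biopython 1.88; no gene coordinates are given on GRCm39. No protein sequences were used here.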

Additional observations from a re-analysis of the deposited data

How the results depend on the processing

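Of the 8 genes, Tpm4 kept its call under all 16 alternatives, Actb and Actg1 under 15, Tpm1 under 13, Acta1 under 12, Tpm3 under 9 and Actc1 under 8; Tpm2 passed as lower under 2. With all 4 libraries as deposited, 7344 genes were higher and 822 lower in Exercise, 5 and 2 of them members. The replicate block gave 7400 and 830 genes and 5 and 2 members; the shared numbers are no stated pairing, and the deviations of the replicates numbered 1 correlated at -0.05 across genes. No filter on low values gave 4513 genes higher and 456 lower (members 3 and 0). Median-of-ratios scaling gave 1403 and 2238 (members 1 and 3), quantile normalization 2109 and 1753 (members 4 and 0), and the total without the 50 highest genes 3451 and 1534 (members 3 and 3). Leaving out each library gave 2622 to 7039 genes higher and 410 to 814 lower, with 3 to 4 members higher and 0 to 2 lower. The fewest calls came without Exercise replicate 2, and no member was called lower without Control replicate 2. A group left with 1 library is assumed to vary like the other group. The cause of these differences between settings was not tested.

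Of the 17 shares and ratios, 81 of 100 alternative values moved by less than 1 SD, 13 moved further and 6 turned sign. Most of the 81 could not have moved further, so the count is no measure of stability. Leaving out 1 of 2 libraries cannot shift a group mean by more than 1 SD, and the pseudogenes added at most 0.06 TPM. All 13 came from quantile normalization or the sum of 6 actins. Apart from the shares and ratios, the log2 fold change of the gene Actc1 turned to -0.20 after median-of-ratios scaling, while its share of the actin sum never turned sign. Under quantile normalization the share differences in percentage points were -9.55 for Acta1, 8.27 for Actc1, 0.580 for Actb, 0.701 for Actg1, 1.28 for Actb with Actg1, -1.03 for Tpm1, -1.27 for Tpm2 (reversed) and 0.218 for Tpm4. The log2 ratio differences were 0.92 for cytoplasmic over muscle actins, 1.43 for Tpm3/Tpm1, -0.0893 for Tpm2/Tpm1 (reversed), 1.05 for Tpm4 and 1.44 for Tpm3 over Tpm1 with Tpm2. Quantile normalization sets ranked values equal between libraries, so it does alter ratios within a library. With all 6 actins in the sum, Acta1 differed by -16.2 and Actg1 by 1.22 percentage points. Leaving out each library gave log2 differences of -0.182 to 0.0852 for Actb/Actg1 and of -0.0344 to 0.0891 for the actin sum over the tropomyosin sum; both turned sign without Exercise replicate 1 and without Control replicate 1.

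With 2 libraries a group, the exact test has a smallest p of 0.333 for every share and ratio. The depth behind each TPM is unknown, and TPM of the whole muscle does not separate fiber types, cell types or isoforms of a gene.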
